A study of Mus musculus with 42 samples.

Results

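The Hox genes of mouse were followed through embryoid body formation, through the step from naive embryonic stem cells to epiblast-like cells, and in cells that lack the microRNA-processing gene Dgcr8. Members were chosen by name: every gene in the deposited tables called Hoxa, Hoxb, Hoxc or Hoxd followed by a paralog number. By that rule 31 of the 39 Hox genes in RefSeq were listed in at least 1 table, 27 among the 16753 lines of the embryoid body table and 23 among the 16346 lines of the epiblast-like cell table, with 19 in both. The Hoxa cluster on chromosome 6 gave 9 members, the Hoxb cluster on chromosome 11 gave 9, the Hoxc cluster on chromosome 15 gave 7 and the Hoxd cluster on chromosome 2 gave 6. Of the others, 8 genes were in neither table and were not analysed here.

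Hox genes encode homeodomain transcription factors that give cells along the head-to-tail axis their positional identity. They sit side by side in clusters, paralogs with low numbers at the 3′ end pattern the hindbrain and neck, and those with high numbers at the 5′ end pattern the trunk, tail, limbs and genitals. In embryos the clusters open from the 3′ to the 5′ end under retinoic acid, Wnt and Fgf signals and Cdx factors, while in embryonic stem cells Polycomb complexes keep them largely silent.

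The study used mouse embryonic stem cells (ESCs) of the KH2 line that carry a doxycycline-inducible (Dox) Flag-tagged ISY1, a splicing-associated factor, to ask how ISY1 and microRNAs act as pluripotent cells leave the naive state. PolyA-selected RNA was sequenced in serum/LIF at day 0 and in embryoid bodies (EBs, floating aggregates that differentiate) at days 1, 2, 4, 8, 10 and 13 without Dox, and in serum/LIF with Dox. The epiblast-like cell (EpiLC) series held KH2-ISY1 cells without Dox at 0 h in 2i/LIF and at 6, 12, 18, 24, 30, 36, 48, 72 and 96 h of induction, with Dox at 24, 48, 72 and 96 h, converted ESCs (cESCs) made by returning 24 h and 48 h EpiLCs of either treatment to 2i/LIF without Dox, and a DGCR8 knockout ESC line at 0, 6, 24, 48, 72 and 96 h. All KH2-ISY1 libraries, controls included, carry the inducible transgene, and no line with Dox but without the transgene was analysed here. The knockout is a separate ESC line, so the effects of line and of knockout cannot be told apart. Small RNA was sequenced in 10 libraries: KH2-ISY1 in serum/LIF without and with Dox, EBs at days 1 and 4 and EpiLC induction at 0, 6 and 48 h without Dox, and V6.5 ESCs, another line, in serum/LIF with control siRNA or with siRNA against Isy1 (siISY1-1 and siISY1-2).

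Each condition and time had 1 library, so p-values here measure the spread around a smooth time course or the spread of a paired difference over hours, not the spread between cultures, and that spread may be technical. The 32 polyA libraries held 5.80 M to 56.0 M gene-assigned reads, and 1 read was worth 0.0952 to 0.935 units of normalised value, the deposited read number divided by a factor for each library. Isy1, the induced gene, was 328 without and 5096 with Dox in serum/LIF, and 423, 397, 558 and 418 without against 3038, 912, 1109 and 708 with Dox at 24, 48, 72 and 96 h of EpiLC induction, so its excess over the control was smaller from 48 h on. Dgcr8 transcripts were 36.8 to 44.5 in the 6 knockout libraries and 75.2 to 231 in the 6 matched KH2-ISY1 libraries, lower at every hour. Values are not per length of transcript, so levels are compared between libraries and not between genes. The counting strand is not given in the sources used here and 10 of the 39 Hox genes overlap another Hox gene in RefSeq, so reads of Hoxa3, Hoxa4 and Hoxa5, of Hoxb3 and Hoxb4, and of Hoxd3 and Hoxd4 may have been split between neighbours.

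In the EB course most listed Hox genes started at low values and were highest later. Members with low paralog numbers made up most of those that ended higher. The values of all members summed to 144 at day 0, 215, 611 and 1601 at days 1, 2 and 4, and 1705, 1885 and 2393 at days 8, 10 and 13. In the limma fit of a smooth curve through the 7 days, 14 of 27 members changed and ended higher at a Benjamini-Hochberg adjusted p under 0.05, and 0 ended lower (1 lower at an unadjusted p under 0.05), beside 17.3% of all genes higher, 9.61% lower and 26.9% either way. Fitted values ended above 0 for 22 of 27 members, against 54.2% of all genes. The median fitted change from day 0 to day 13 was 2.31 on the log2(value + 1) scale, against 0.12 for all genes tested. The table lists only genes that reached at least 10 in some library, so a member low at day 0 had to rise to be listed. The same floor was set for every gene but bears most on genes with low values. The contrasts between the members and all genes are therefore partly set by the listing. In these mixed aggregates, more cells of a Hox-expressing type and more RNA per cell cannot be told apart.

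**Figure D1:**
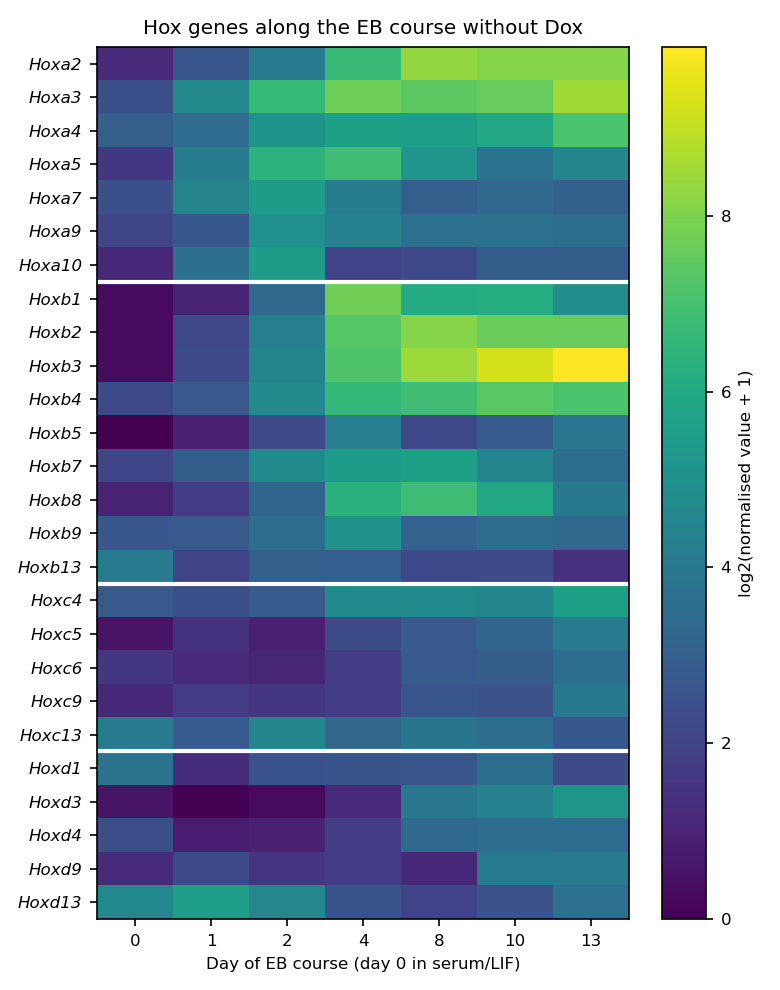
Log2(value + 1) of 26 of the 27 Hox genes of the embryoid body table (rows, by cluster and paralog number, white lines between clusters) in the 7 libraries without Dox (columns, day). Rows are read from left to right and not against each other: the low-numbered rows of Hoxa and Hoxb brighten between day 1 and day 4, Hoxd3 only from day 8, and the paralog 13 rows are already lit at day 0 and dim by day 4.

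The rise of Hoxb1 was brief. Hoxb1, a direct retinoic acid target that marks a hindbrain segment, was 0.23, 0.95, 9.56, 218, 67.7, 70.0 and 28.9 at days 0, 1, 2, 4, 8, 10 and 13. It was 1 read at day 0, was highest at day 4 and was at 13.3% of that height at day 13. Its fitted change was 6.29 ± 1.47 (SE; limma adjusted p = 0.0293). Hoxd1 was 13.2, 1.43, 4.67, 5, 5.29, 11.1 and 3.89 in the same order, with no day above that of day 0, and did not pass the test (adjusted p = 0.625 in limma).

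The paralog 2 and 3 genes of Hoxa and Hoxb reached their highest values later than Hoxb1 and stayed high. Hoxa2, which specifies the second pharyngeal arch, was 1.36, 5.24, 16.4, 104, 315, 277 and 275 along the days. It first passed 10 at day 2 and held 87.4% of its highest value at day 13, with a change of 7.98 ± 0.76 (SE; limma adjusted p = 0.00187). Hoxb2, a hindbrain gene of the same paralog group, was 0.23, 3.43, 18.2, 159, 274, 200 and 193, a course of the same shape with its peak at the same day, with a change of 8.38 ± 0.89 (SE; limma adjusted p = 0.00236). Hoxa3, needed for the thymus and parathyroid glands, was 4.32, 24.7, 98.2, 211, 169, 197 and 362, at 169 or more in every library from day 4 on and highest at day 13. Hoxb3 was 0.23, 3.52, 21.3, 146, 355, 622 and 968, from 1 read at day 0 to 1742 reads at day 13 with every library above the one before it. Its fitted change was 10.33 ± 0.68 (SE; limma adjusted p = 0.00075) and that of Hoxa3 was 5.71 ± 0.55 (SE; limma adjusted p = 0.00168). Hoxd3 was 0.45, 0, 0.22, 1.25, 14.7, 19.4 and 36.7, under 2 up to day 4 and at 14.7 or more from day 8 on, and its change was 5.37 ± 0.72 (SE; limma adjusted p = 0.00351). The fitted changes of Hoxb1, Hoxb2 and Hoxb3 start from 1 read and depend on the value of 1 added before the logarithm.

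**Figure D2:**
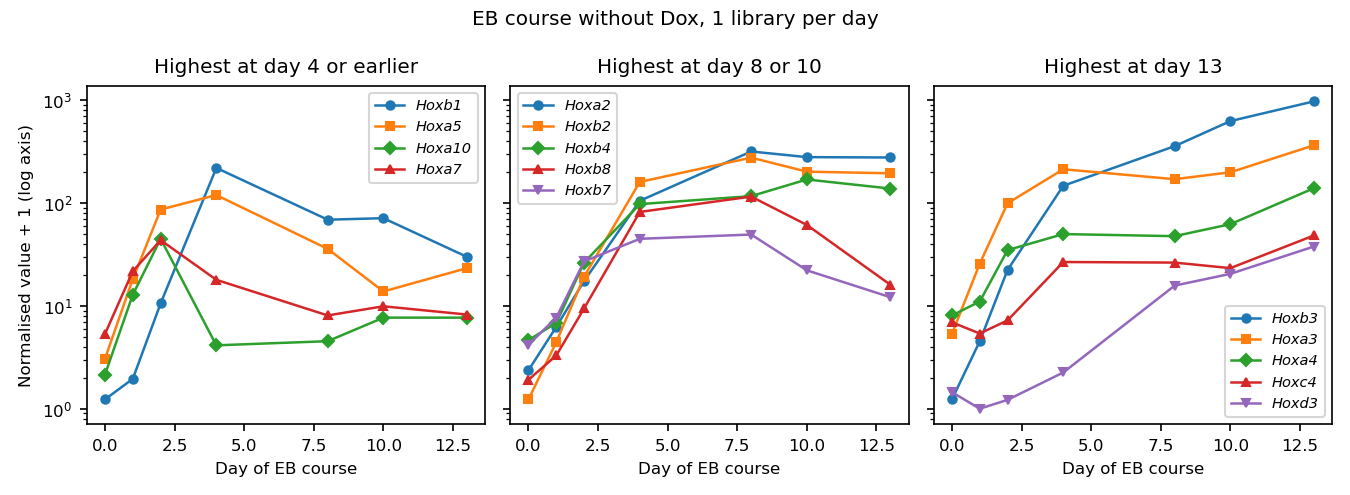
Normalised value + 1 (log axis) against day for 14 Hox genes in 3 panels by the day of the highest value: up to day 4 (left), day 8 or 10 (middle) and day 13 (right), each point 1 library without Dox. Hoxb1, Hoxa5, Hoxa7 and Hoxa10 rise and come down again, Hoxb8 and Hoxb7 come down only after day 8, and Hoxb3 climbs to 968 at day 13.

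The paralog 4 genes come last among paralogs 1 to 4 by number and not by time. Hoxa4 was at 10 by day 1 and Hoxb4 above it by day 2, before Hoxb1 at day 4. Hoxa4 was 7.05, 10.0, 33.8, 48.8, 46.5, 61.1 and 138, with its highest library at day 13. Hoxb4, which is known for expanding blood stem cells, was 3.64, 5.81, 25.3, 96.2, 115, 168 and 137 and so between 96.2 and 168 from day 4 on. Hoxc4 was 5.91, 4.38, 6.22, 25.6, 25.3, 22.2 and 47.2, level over the first 3 libraries and higher in the last 4 without overlap. All 3 changed in the limma fit, by 3.80, 5.78 and 3.01 on the log2 scale with adjusted p of 0.00945, 0.00465 and 0.0349. Hoxd4 was 4.09, 0.67, 0.89, 2.5, 9.41, 10.6 and 10.0 and did not pass (adjusted p = 0.0632 in limma).

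Among paralogs 5 to 8, which pattern the neck and upper trunk, several members peaked within the course. Hoxa5, needed for the lung and the neck vertebrae, was 2.05, 17.1, 85.1, 118, 34.7, 12.8 and 22.2, highest at days 2 and 4 and at 18.8% of its peak on day 13, and its fitted change turned to -1.26 without day 0. Hoxb8, a trunk gene also known from myeloid cells, was 0.91, 2.29, 8.44, 80.6, 114, 60 and 15, and Hoxb7 was 3.18, 6.67, 26, 43.8, 48.2, 21.1 and 11.1. Both peaked at day 8, after Hoxa5 and before the end. Hoxa7 was 4.32, 20.7, 42.4, 16.9, 7.06, 8.89 and 7.22, a peak at day 2 that did not pass the test of the curve (adjusted p = 0.106 in limma). Hoxc5 was 0.45, 1.71, 0.89, 3.75, 5.88, 8.33 and 15.6 and Hoxc6, an upper trunk gene, was 2.05, 1.24, 1.11, 2.5, 5.88, 6.67 and 11.1, and both reached 10 only at day 13. The changed members of this range were Hoxa5, Hoxb7, Hoxb8, Hoxc5 and Hoxc6, whose fitted changes were 2.14, 2.34, 5.15, 3.37 and 2.21 with limma adjusted p between 0.0145 and 0.04. Hoxb5 reached 18.1 at day 4 from 0 reads at day 0 and did not pass (adjusted p = 0.0749 in limma).

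Of the 8 members with paralog numbers 9 to 13, 0 passed the test (0 higher and 0 lower), beside 9 of 12 with numbers 1 to 4 and 5 of 7 with numbers 5 to 8. Hoxa10, known from the uterus and lumbar vertebrae, was 1.14, 11.8, 43.8, 3.13, 3.53, 6.67 and 6.67, a short peak at days 1 and 2. Hoxa9, a blood progenitor gene, was 3.18, 5.71, 31.3, 19.4, 12.3, 12.2 and 11.1 and Hoxb9 was 5.45, 5.81, 10.7, 31.9, 7.65, 10.6 and 9.44, with single peaks at days 2 and 4. Hoxd9, a forelimb gene, was 1.36, 3.62, 1.78, 2.5, 1.18, 16.7 and 15.6, above 10 only in the last 2 libraries, and Hoxc9 was 15.0 at day 13 and at most 5.29 before.

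The 3 listed paralog 13 genes, which shape the digits, tail, prostate, hair and nails, had their highest values at days 0, 1 or 2. Hoxd13, required for digits, was 23.6, 46.7, 23.3, 5, 2.94, 4.44 and 12.2 at days 0, 1, 2, 4, 8, 10 and 13. Hoxc13, which is needed for hair, was 16.4, 6.19, 22.7, 8.75, 13.5, 10.6 and 5.56. Hoxb13, known from the tail and prostate, was 16.4, 3.05, 7.11, 6.88, 3.53, 3.89 and 1.67. Their values summed to 56.4, 55.9 and 53.1 at days 0, 1 and 2 and to 18.9 to 20.6 from day 4 on, while the sum over all members went from 144 to 2393. None of the 3 passed the limma test alone, with adjusted p of 0.202 for Hoxd13, 0.671 for Hoxc13 and 0.198 for Hoxb13.

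By cluster, 4 of 8 Hoxa members, 6 of 9 Hoxb members, 3 of 5 Hoxc members and 1 of 5 Hoxd members ended higher. The onset, taken as the first library at 10 or above, fell after day 0 for 22 of 27 members: at day 1 for 5 members, all in Hoxa, at day 2 for 7, at day 4 for 4, and at days 8, 10 and 13 for 1, 2 and 3. All 8 Hoxa members were at or above 10 by day 2 and all 9 Hoxb members by day 4, whereas 3 of 5 Hoxc members had their onset at day 13 and 3 of 5 Hoxd members at day 8 or 10. Within Hoxa the onset did not follow the paralog number: Hoxa3, Hoxa4, Hoxa5, Hoxa7 and Hoxa10 passed 10 at day 1, and Hoxa2 and Hoxa9 at day 2. Within Hoxb, Hoxb2, Hoxb3, Hoxb4, Hoxb7 and Hoxb9 did so at day 2, and Hoxb1, Hoxb5 and Hoxb8 at day 4. The value of 10 is a fixed level close to the highest value of some members, such as 11.1 for Hoxc6 and 10.6 for Hoxd4. Measured instead by the first library at 50% of a gene's own highest value, 6 of 8 Hoxa and 8 of 9 Hoxb members were there by day 4, against 2 of 5 Hoxc and 2 of 5 Hoxd members. On that measure the order of single genes changed: Hoxc4 was there at day 4 and Hoxc6 and Hoxd4 at day 8, against day 8 for Hoxa2, day 10 for Hoxb3 and day 13 for Hoxa4. The order was described without a test, since neighbouring genes are not independent.

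The promoters of 3 members, chosen after the values were seen, show the range of sequence among members that behave differently: Hoxb1, with its peak at day 4, Hoxb8, with its peak at day 8, and Hoxd13, highest at day 1. Each holds 250 bases before and 50 after the gene start from RefSeq on GRCm38.p6, all on the plus strand, and capitals mark matches on either strand to TTTATG (a Cdx-type motif), TGATNNAT (a Hox-Pbx motif), TATAAA and CCAAT, some of which overlap.
Hoxb1, chr11:96365508-96365807: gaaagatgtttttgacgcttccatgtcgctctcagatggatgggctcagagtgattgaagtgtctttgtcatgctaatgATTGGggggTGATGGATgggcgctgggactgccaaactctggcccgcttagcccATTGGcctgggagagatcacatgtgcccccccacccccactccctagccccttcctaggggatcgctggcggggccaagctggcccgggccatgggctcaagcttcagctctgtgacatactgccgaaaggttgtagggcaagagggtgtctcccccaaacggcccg
Hoxb8, chr11:96281655-96281954: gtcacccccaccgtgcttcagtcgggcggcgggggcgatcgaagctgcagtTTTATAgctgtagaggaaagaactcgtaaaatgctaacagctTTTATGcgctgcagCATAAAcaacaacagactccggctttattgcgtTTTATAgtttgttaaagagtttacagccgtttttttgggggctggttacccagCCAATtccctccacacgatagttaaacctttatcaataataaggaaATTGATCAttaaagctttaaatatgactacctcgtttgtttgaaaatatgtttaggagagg
Hoxd13, chr2:74667975-74668274: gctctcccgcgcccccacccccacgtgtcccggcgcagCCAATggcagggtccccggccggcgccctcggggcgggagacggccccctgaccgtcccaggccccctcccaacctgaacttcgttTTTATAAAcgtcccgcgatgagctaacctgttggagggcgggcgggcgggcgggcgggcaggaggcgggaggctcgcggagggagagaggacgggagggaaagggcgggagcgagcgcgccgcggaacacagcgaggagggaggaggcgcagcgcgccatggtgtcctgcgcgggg
The Hoxb8 window holds 2 TTTATG matches, 1 TGATNNAT match and 13 CpG dinucleotides, the Hoxb1 window holds 1 TGATNNAT match and 10 CpG, and the Hoxd13 window holds neither of those motifs and 37 CpG. Promoter windows were listed for 22 Hox genes (24 windows), with a median of 14.5 CpG against 7 over all 32851 windows and a median GC content of 57.67% against 52.67%. TTTATG occurred in 20.83% of Hox windows and 11.85% of all, TGATNNAT in 16.67% and 8.846%, AGGTCA (a retinoic acid receptor motif, not in capitals above) in 29.17% and 16.26%, TATAAA in 16.67% and 13.62%, and CCAAT in 62.5% and 37.41%. A match is a description of letters and not a site.

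The partners and inputs of Hox proteins were read from lists of other genes. Of the 9 TALE homeodomain genes tested, whose products bind DNA together with Hox proteins, 6 rose and 0 fell, led by Meis2 at 7.61, Meis3 at 5.43 and Meis1 at 5.42 on the log2 scale (limma adjusted p 0.00287, 0.00881 and 0.000982). Of 18 retinoic acid pathway genes 8 rose and 1 fell: Rbp4 (9.16), which carries retinol, Cyp26b1 (8.55), Cyp26a1 (7.80) and Cyp26c1 (4.76), which degrade retinoic acid, and the receptor gene Rarb (4.31) rose, and the receptor gene Rarg went from 735 at day 0 through 2148 at day 2 to 78.9 at day 13. Of 17 upstream regulators 7 rose and 3 fell. Wnt5a (7.12), T (7.0), which marks the primitive streak, and Gdf11 (5.48), a trunk-to-tail signal, rose. Cdx2, which drives posterior Hox genes, was 4.38 to 7.33 up to day 4 and 62.4 to 114 from day 8 on, later than the onset of 21 of the 27 Hox genes, whereas its paralog Cdx1 was 83.9 at day 0 and 1.88 at day 4. Of 22 Polycomb and Trithorax genes 6 rose and 4 fell, beside 17.3% higher and 9.61% lower of all genes. Of 13 genes next to the clusters 2 rose and 3 fell: Evx2 (4.59) and Evx1 (3.80), homeobox genes at the 5′ ends of Hoxd and Hoxa, rose and Ttll6 (-5.07) fell. The noncoding transcript 5730596B20Rik, inside the Hoxa cluster on chromosome 6, was 0.45, 2.29, 8.22, 24.4, 17.1, 30.0 and 40.0 along the days and rose with a change of 4.85 (limma adjusted p = 0.00564).

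Marker genes of other cells moved along the same days, and their part in the Hox values was not tested. The 7 listed genes of the hindbrain and spinal cord list summed to 411 to 485 at days 0 to 2, 2382 at day 4 and 2401 to 9693 at days 8 to 13, with 5 of 7 higher. In the same order the 6 visceral endoderm genes summed to 45.9 to 83.2, 3204 and 6489 to 8387. The 8 lateral mesoderm genes summed to 25.9 to 64.8, 124 and 401 to 1477, and the 7 listed forebrain and midbrain genes to 107 to 261, 227 and 169 to 302. The 9 listed fibroblast genes summed to 23.3 to 226 at days 0 to 2, 408 at day 4 and 134 to 12700.0 at days 8 to 13. Their defining collagen gene Col3a1 was 0 to 0.23 up to day 4 and 4322 at day 13, the day on which 8 members were highest (Hoxa3, Hoxa4, Hoxb3, Hoxc4, Hoxc5, Hoxc6, Hoxc9 and Hoxd3). Without day 13, 9 of 27 Hox genes ended higher, and without day 10, 8 did, while the share of all genes called higher went from 17.3% to 8.12% and 7.84%. The calls on Hoxb1 and Hoxb7 were lost without day 8, 10 or 13, that on Hoxb7 also without day 2, that on Hoxb8 without day 8 or 10 and that on Hoxc5 without day 10 or 13. Those on Hoxc4 and Hoxc6 were lost without day 1, 2, 8, 10 or 13. Hoxa2, Hoxa3, Hoxa4, Hoxb2, Hoxb3, Hoxb4 and Hoxd3 were called under all 18 other settings that were tried.

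In the EpiLC course the Hox genes went the other way: from low but measurable values in 2i/LIF, most fell to a few reads within 48 h. The values of the 23 listed members summed to 361 at 0 h, 411 at 6 h, 269 and 248 at 12 and 18 h, 108 at 24 h, 45.2 at 48 h and 19.7 at 96 h. Of 21 members with a mean of at least 1, 18 fell and 0 rose in limma (0 rose at an unadjusted p under 0.05), beside 24.8% of all genes lower, 25.4% higher and 50.1% either way. The fitted change from 0 h to 96 h was above 0 for 0 of 21 members, against 49% of all genes, and its median was -3.05 against -0.02 for all genes. A member near 0 from 48 h on could reach the mean of 1 only through its early libraries. With no filter on low values, 2 of 23 members were above 0, and 18 fell, beside 24.6% of all genes lower. The calls covered 5 of 8 Hoxa, 3 of 3 Hoxb, 7 of 7 Hoxc and 3 of 3 Hoxd members tested. Only 1 member was at 0 at 0 h, 12 were at 0 at 48 h and 9 at 96 h. The 2 tables were normalised separately, so levels are not compared between this course and the EB course.

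All 4 listed paralog 13 genes fell. Hoxc13 was 68.7, 73.8, 49.1, 39, 22.7, 8.8, 16, 13.3, 3 and 2.1 at 0, 6, 12, 18, 24, 30, 36, 48, 72 and 96 h, a change of -4.61 ± 0.63 (SE; limma adjusted p = 0.000176). Hoxd13 was 35.7, 51.2, 26.3, 38.4, 20.9, 12.4, 11.8, 11.5, 13 and 4.3, so it stayed between 11.5 and 13.0 from 30 to 72 h and was lower only at 96 h, a change of -2.46 ± 0.61 (SE; limma adjusted p = 0.00414). Hoxb13 was 44.3, 20.8, 13.2, 9.9, 2.7, 1.8, 1.2, 0, 1 and 0.9, lower in each library up to 48 h, a change of -4.33 ± 0.63 (SE; limma adjusted p = 7.77e-05). Hoxa13, a distal limb gene, was 10.4, 9.5, 5.4, 2.3, 0.9, 1.2, 1.2, 0.9, 0 and 0.4, with 9.5 or more in the first 2 libraries only (-3.28, limma adjusted p = 0.00309).

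Among paralogs 9 to 12, Hoxd9 was 29.6, 48.8, 16.2, 17.4, 4.5, 1.8, 1.2, 4.4, 0 and 0.9, highest at 6 h and under 5 from 24 h on, with a change of -4.30 ± 0.99 (SE; limma adjusted p = 0.00139). Hoxc10, a hindlimb and lumbar gene, was 19.1, 25.6, 13.8, 8.7, 2.7, 0.6, 1.2, 0, 0 and 0.4, and Hoxc12 was 15.7, 16.7, 11.4, 6.4, 1.8, 0, 1.2, 0, 0 and 0. Both were highest at 6 h and at or near 0 from 30 h. Hoxa10 was 11.3, 7.7, 12, 11, 0, 1.2, 0.6, 0, 0 and 0 and Hoxb9 was 8.7, 19.6, 21.6, 7.6, 5.5, 2.9, 4.7, 3.5, 2 and 0. The drop of Hoxa10 came in 1 step between 18 and 24 h, while Hoxb9 came down in stages. Hoxc9 was 3.5, 13.7, 7.2, 3.5, 2.7, 4.1, 2.4, 0.9, 2 and 0.9, with 1 high library at 6 h. The log2 changes were -3.86 for Hoxc10, -3.96 for Hoxc12, -3.40 for Hoxa10, -3.05 for Hoxb9 and -1.20 for Hoxc9, and their limma adjusted p lay between 9.52e-05 and 0.034. Hoxa9 was 10.4, 1.8, 0.6, 2.9, 3.6, 0, 0.6, 0, 3.5 and 0 and did not pass (adjusted p = 0.181 in limma).

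Among the members with lower numbers, Hoxc4 was 20, 38.1, 28.7, 22.1, 10.0, 9.4, 7.7, 0.9, 0 and 0, highest at 6 h and at 0 at 72 and 96 h, with a change of -4.65 ± 0.65 (SE; limma adjusted p = 5.45e-05). Hoxa3 was 11.3, 4.2, 4.8, 5.2, 2.7, 2.4, 2.4, 0.9, 1.5 and 1.3, highest at 0 h. Hoxc5 was 8.7, 10.7, 7.8, 12.8, 4.5, 0, 0, 0, 0 and 0, Hoxc6 was 9.6, 9.5, 6, 8.7, 1.8, 2.4, 0, 0.9, 0 and 0 and Hoxb4 was 8.7, 10.1, 5.4, 4.1, 3.6, 1.8, 1.8, 0, 0.5 and 0.4. These 3 were under 6 in every library from 24 h on, and Hoxc5 was at 0 from 30 h. Hoxd8, a gene of the trunk, was 8.7, 8.3, 3, 10.5, 2.7, 2.4, 3.6, 0.9, 1.5 and 0 and Hoxa5 was 5.2, 6, 7.2, 2.3, 3.6, 2.4, 2.4, 0, 1.5 and 0.9, both at or under 3.6 from 24 h. All of these passed the limma test, with adjusted p from 5.45e-05 for Hoxc4 to 0.0374 for Hoxa5. Hoxa7 and Hoxa4, at most 7.8 and 7.0, did not pass, and Hoxa2 and Hoxd1, at most 2.7 and 1.8, had means under 1 and were not tested. Across these libraries 3 reads were worth at most 2.80 units, so values of that size rest on a few reads.

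Leaving out single libraries ended the calls on 5 of the 18, among them Hoxa3 without 0 h, Hoxd8 without 96 h, Hoxc9 without 6, 12, 48 or 96 h, and Hoxa5 without 0, 6, 12, 24, 30, 48 or 96 h. In the same course Cdx1 was 176 at 0 h and 0.9 to 3.0 from 30 h on and fell (-5.84, limma adjusted p = 0.000178), and Cdx2 was 34.5 at 6 h and at most 5.4 in the other libraries. Evx1, next to Hoxa13, was 0 at 0 h and 79.2 at 6 h. Of 8 TALE genes 2 rose and 3 fell, and among them Pbx3 rose by 3.02 and Meis2 fell by 4.27. Of 22 Polycomb and Trithorax genes 6 rose and 9 fell, among the latter Cbx8 (-3.95), beside 25.4% higher and 24.8% lower of all genes.

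Forced ISY1 was compared with its control at 4 matched hours to ask whether Dox alters the course. Most Hox genes had higher values with Dox, but only Hoxc13 passed the test. Isy1, the induced gene, did not pass the same fit (1.45 ± 0.31, SE, limma adjusted p = 0.0542), so a gene that did not pass may still differ. Hoxc13 was 22.7, 13.3, 3 and 2.1 without and 41.1, 32.5, 16.5 and 14.9 with Dox at 24, 48, 72 and 96 h, so that each library with Dox lay above its partner and the excess grew with the hours on the ratio scale. Its paired change was 1.64 ± 0.31 (SE; limma adjusted p = 0.0467), 1 of 18 members tested, beside 1.78% of all genes higher, 1.05% lower and 2.83% either way. At the level of single values, 17 of the 18 members tested had a fitted difference above 0, against 48.1% of all genes, and 10 of 18 were higher at an unadjusted p under 0.05, against 12.2% of all genes. The median paired difference was 1.01 for the members and -0.01 for all genes. A member near 0 without Dox, such as Hoxa4 or Hoxa7, could reach the mean of 1 only through its libraries with Dox. These contrasts are therefore partly set by the filter. With no filter on low values, 19 of 23 members were above 0, and the share of all genes was not counted under that setting.

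**Figure D3:**
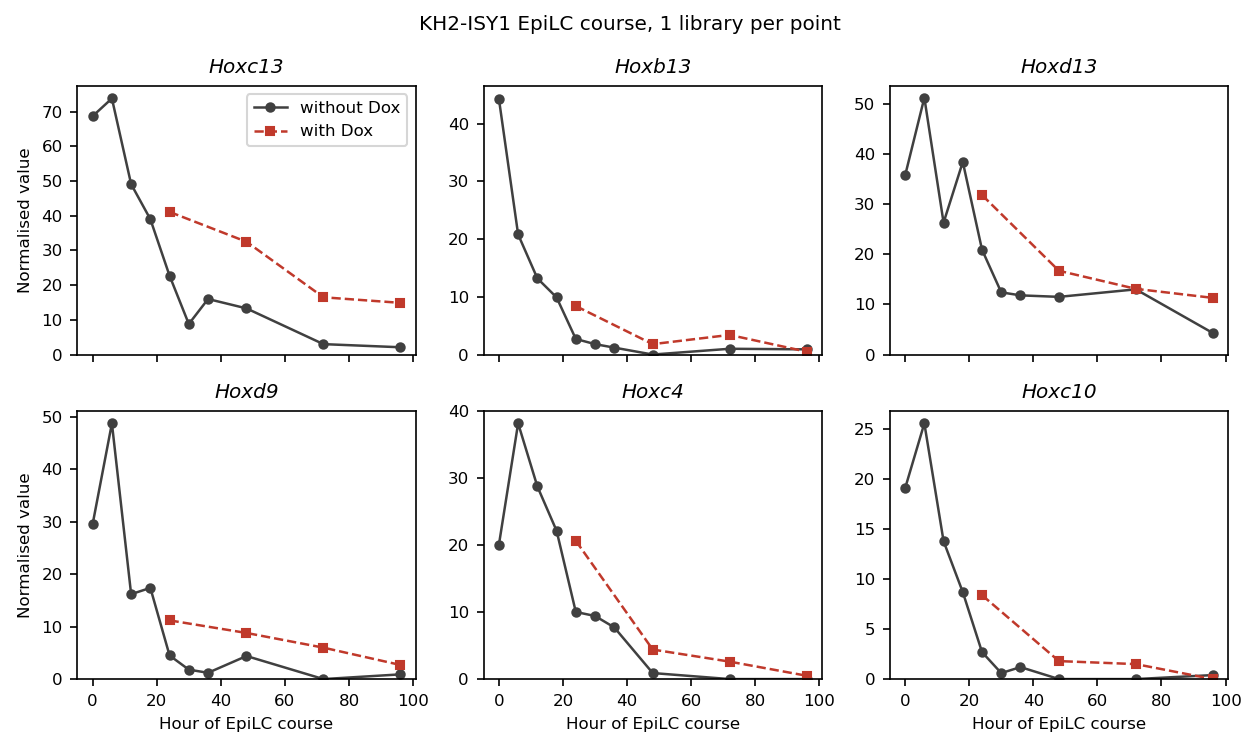
Normalised value against hour of EpiLC induction for Hoxc13, Hoxb13, Hoxd13, Hoxd9, Hoxc4 and Hoxc10 in KH2-ISY1 cells without Dox (10 libraries) and with Dox (4 libraries), 1 library a point. The points with Dox lie above the course without Dox at all 4 hours for Hoxc13, Hoxd9, Hoxc4 and Hoxd13, and all 6 genes decline in both series.

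The call on Hoxc13 depended on the settings: it was lost in 8 of 13 alternatives, among them those without the 48, 72 or 96 h pair, and the count of called members was then 0. In 4 of the 8, without the 48 or the 72 h pair, with no intensity trend and with no hour block, limma called 0 of all genes, with 1276 to 3306 genes at an unadjusted p under 0.05, and without the 96 h pair it called 66 of 16101. For members that did not pass, the values were as follows. Hoxd9 was 4.5, 4.4, 0 and 0.9 without and 11.2, 8.8, 6 and 2.7 with Dox. Hoxc4 was 10.0, 0.9, 0 and 0 without and 20.6, 4.4, 2.6 and 0.5 with Dox. In both genes all 4 libraries with Dox lay above their partners, with limma adjusted p of 0.1 and 0.112. Hoxa4 was 0, 0, 1.5 and 0.4 without and 3.7, 7, 2.6 and 3.6 with Dox, Hoxa5 was 3.6, 0, 1.5 and 0.9 and 5.6, 7, 4.5 and 4.5, and Hoxa7 was 0, 0, 2 and 0 and 2.8, 6.1, 2.2 and 5. Hoxd13 was 20.9, 11.5, 13 and 4.3 without and 31.8, 16.7, 13.1 and 11.3 with Dox, which differ by little at 72 h. Over the 23 listed members, 16 were higher and 7 lower with Dox at 24 h, 20 and 2 at 48 h, 18 and 3 at 72 h, and 18 and 4 at 96 h. These counts take a difference of any size, and the share of all genes was not counted by hour. The summed values were 108, 45.2, 40.5 and 19.7 without and 198, 128, 79.7 and 81.8 with Dox. Both sums were lower at 96 h than at 24 h. Other regulators moved with Dox as well: Gata6 rose by 2.03 and Lin28a fell by 0.56 (limma adjusted p 0.0371 and 0.0345), and their part in the Hox values was not tested.

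In serum/LIF, with 1 library each and so no test, Dox went with lower values of most members. Of 27 members, 16 had more than 3 reads in both libraries, and 8 of these were at least 2-fold lower with Dox and 0 at least 2-fold higher, beside 8.71% lower, 1.47% higher and 10.2% either way of all genes above that floor. Hoxd1 was 13.2 without and 1.43 with Dox, a ratio of 0.108 with an exact 95% interval of 0.0382 to 0.25 that covers counting error only. Hoxb13 was 16.4 and 5.71 (0.349, 0.210 to 0.561) and Hoxd13 was 23.6 and 9.52 (0.403, 0.273 to 0.585). Hoxc13 was 16.4 without and 29.3 with Dox, a ratio of 1.79 (1.33 to 2.43), and of the 16 only this interval lay above 1. The other 12 had intervals that include 1, among them Hoxa3, Hoxa5, Hoxb4, Hoxb7 and Hoxc6, which were counted as at least 2-fold lower. With few reads a 2-fold difference arises from counting more easily than in genes with many reads, which are among all genes. The 9 listed fibroblast genes summed to 226 without and 67.6 with Dox. Most of the sum lay in Thy1 (134.77 and 51.9), Col1a1 (44.3 and 8.81) and Fbln2 (44.55 and 6.19). Col1a2 was 0.23 and 0.71, and Col3a1, Lum and Dcn were at 0 to 0.23 in both. The part of these genes in the difference was not tested.

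In cESCs the Hox genes were listed as single libraries. Hoxc13 was 30.8, 87.3, 78.9 and 41.4 in cESCs from 24 h and 48 h EpiLCs without Dox and from 24 h and 48 h EpiLCs with Dox, and so within or above the range between the EpiLCs they came from (22.7 and 13.3 without, 41.1 and 32.5 with Dox) and the 68.7 of the 0 h library. Hoxd13 was 0, 5.5, 7 and 4.5 in the same order, against 35.7 at 0 h, and so below the 0 h library in all 4. Hoxc4 was 4.2, 14.5, 31.6 and 14.4, against 20 at 0 h. The members summed to 70.7, 164, 186 and 113, below the 361 of the 0 h library, and 4 of 23 were above 3 reads in all 4 libraries.

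The DGCR8 knockout line, which lacks the Dgcr8 function needed to make most microRNAs, was compared with KH2-ISY1 without Dox at 6 matched hours. Of 22 members tested, 5 were higher and 1 lower in limma, beside 18.1% of all genes higher, 24.3% lower and 42.4% either way. The share of members higher was thus close to that of all genes, and the share called either way was below it. The higher members were Hoxa9, Hoxa10, Hoxb13, Hoxa7 and Hoxd8, and the lower was Hoxc13. By paralog number, 0 of 6 members with numbers 1 to 4, 2 of 5 with 5 to 8 and 3 of 11 with 9 to 13 were higher. Fitted differences were above 0 for 15 of 22 members, against 44.4% of all genes, with 9 of 9 in Hoxa and 1 of 7 in Hoxc. Their median was 0.72 with all hours and turned to -0.16 without 72 and 96 h, where 9 of 22 were above 0 and the median of all genes was -0.10.

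Hoxa9 was 46.9, 23.8, 20.3, 10.7, 5.1 and 24.3 in the knockout and 10.4, 1.8, 3.6, 0, 3.5 and 0 in KH2-ISY1 at 0, 6, 24, 48, 72 and 96 h, higher at every hour by 2.68 ± 0.48 (SE; limma adjusted p = 0.00242). Hoxb13 was 55.3, 32.9, 11.8, 10.3, 11.9 and 17.8 and 44.3, 20.8, 2.7, 0, 1 and 0.9, close at 0 h and further apart from 24 h on, with a difference of 2.04 ± 0.45 (SE; limma adjusted p = 0.00629). Hoxa10 was 15.9, 16.2, 9.3, 5.1, 2.3 and 11.2 and 11.3, 7.7, 0, 0, 0 and 0, with a difference of 2.12 ± 0.45 (SE; limma adjusted p = 0.00529). Hoxa7 was 10.6, 15.7, 5.5, 1.4, 9.6 and 25.9 and 7.8, 6, 0, 0, 2 and 0 (2.03, limma adjusted p = 0.012). Hoxd8 was 11.6, 20, 8, 8.4, 1.8 and 4.5 and 8.7, 8.3, 2.7, 0.9, 1.5 and 0 (1.29, limma adjusted p = 0.0189). In all 5 of these genes each of the 6 knockout libraries lay above its partner. Hoxc13 was 45.6, 27.1, 7.6, 4.2, 2.6 and 2.4 and 68.7, 73.8, 22.7, 13.3, 3 and 2.1, lower in the knockout up to 72 h and level at 96 h, with a difference of -0.82 ± 0.28 (SE; limma adjusted p = 0.0405) that was lost after either rescaling of the libraries and without the 0, 6, 24 or 48 h pair. The call on Hoxd8 was lost without the 48 h pair. With no block for the hour 1 of the 6 was called, Hoxa9, which was called in all 15 alternatives. The share of all genes called was 21.4% with no block, against 42.4% with it.

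**Figure D4:**
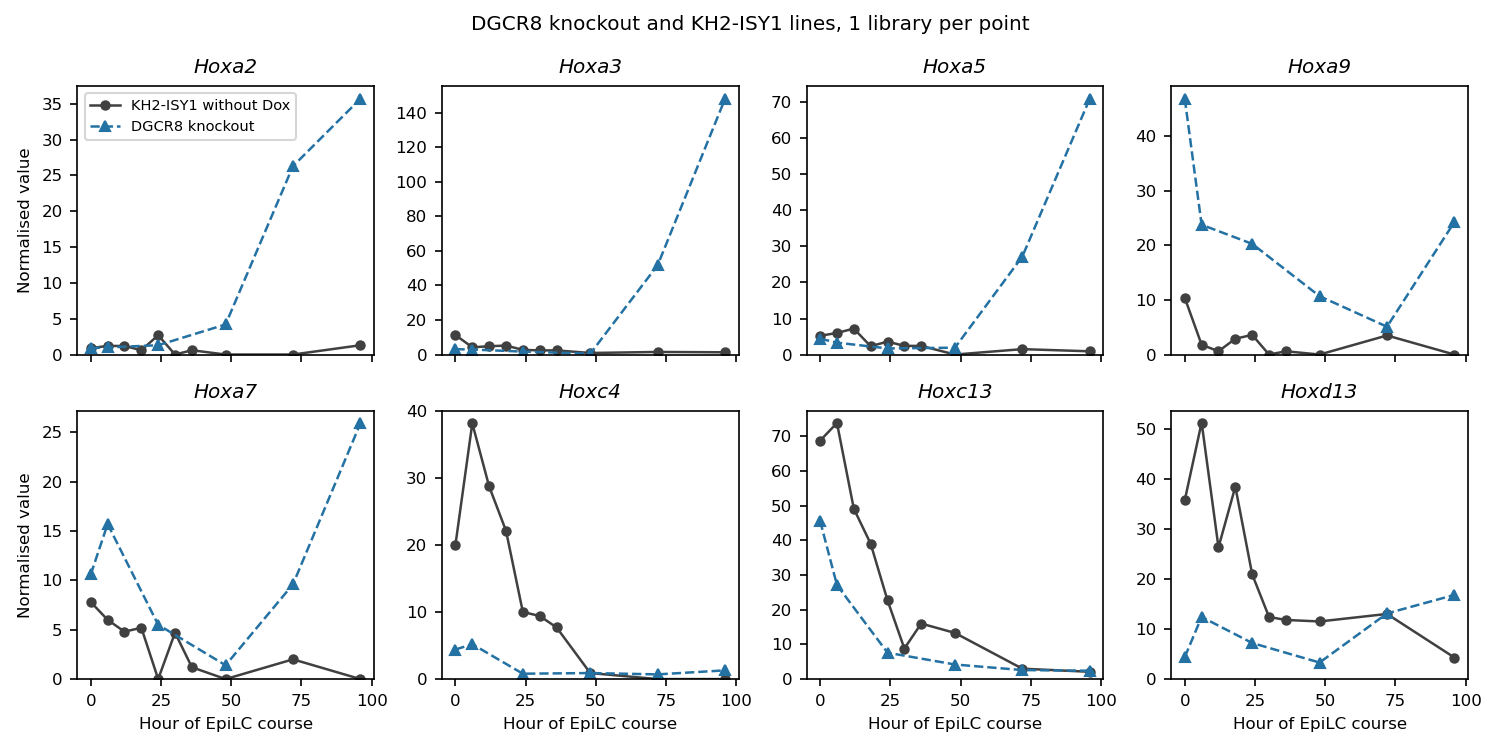
Normalised value against hour of EpiLC induction for Hoxa2, Hoxa3, Hoxa5, Hoxa9, Hoxa7, Hoxc4, Hoxc13 and Hoxd13 in KH2-ISY1 without Dox and in the DGCR8 knockout line, 1 library a point. Hoxa9 is apart from 0 h on, Hoxc4 is lower in the knockout at the early hours, and Hoxa2, Hoxa3 and Hoxa5 separate at 72 and 96 h, where the knockout reaches 35.7, 148 and 71.0.

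Several Hoxc genes and Hoxd13 had lower values in the knockout at the early hours. Hoxc4 was 4.4, 5.2, 0.8, 0.9, 0.7 and 1.3 in the knockout and 20, 38.1, 10.0, 0.9, 0 and 0 in KH2-ISY1. Hoxd13 was 4.4, 12.4, 7.2, 3.3, 13.1 and 16.8 and 35.7, 51.2, 20.9, 11.5, 13 and 4.3, lower up to 48 h, level at 72 h and higher at 96 h. Hoxc5 and Hoxc6 were at most 1.0 in the knockout, against 8.7 and 9.6 at 0 h in KH2-ISY1. With the 72 and 96 h pairs left out, a setting chosen after seeing the data, the same 5 members were higher and 5 were lower, beside 14.2% higher and 18.6% lower of all genes. The lower members were Hoxd13 (-1.92), Hoxc4 (-1.81), Hoxc6 (-1.80), Hoxc5 (-1.72) and Hoxc13 (-1.23), with limma adjusted p from 0.00334 to 0.0466. Over all 6 hours Hoxc13 passed and the other 4 did not.

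The late knockout libraries held another pattern, in the 3′ Hoxa genes. Hoxa3 was 3.1, 2.9, 1.7, 0.5, 51.7 and 148 in the knockout and 11.3, 4.2, 2.7, 0.9, 1.5 and 1.3 in KH2-ISY1. Hoxa2 was 0.9, 1, 1.3, 4.2, 26.3 and 35.7 and 0.9, 1.2, 2.7, 0, 0 and 1.3. In both the 72 and 96 h knockout libraries lay above the other 10. Hoxa4 was 0.6, 1.4, 0.8, 0.5, 12.1 and 29.1 and 3.5, 4.2, 0, 0, 1.5 and 0.4, and Hoxa5 was 4.4, 3.3, 1.7, 1.9, 27.2 and 71 and 5.2, 6, 3.6, 0, 1.5 and 0.9, with the same 2 libraries apart. Hoxb4, the listed low-numbered Hoxb gene, was 7.5, 7.6, 5.1, 1.4, 0.7 and 1.4 in the knockout and showed no such step. The paired difference was therefore fitted along the hours: 0 of 22 members passed the limma test (smallest adjusted p = 0.062, Hoxa4), beside 0.523% of all genes, 0.375% upward and 0.148% downward. At an unadjusted p under 0.05, 16 of 22 slopes of the signed difference, knockout minus KH2-ISY1, were upward, against 8.1% of all genes. Fitted slopes were above 0 for 22 of 22 members, against 54.1%. An upward slope need not be a late excess in the knockout, since an early deficit that closes gives one too. The log2 difference of Hoxc5 was -2.35 at 0 h and 0 at 96 h, and that of Hoxc6 -2.48 and 0.49. Both were at 0 in KH2-ISY1 at 72 and 96 h. For Hoxa3 it was -1.58 and 6.02. The median slope, scaled to the change over the course, was 3.12 for the members and 0.06 for all genes. The knockout value was above its partner for 6 of 23 members at 0 h, 5 at 6 h, 11 at 24 h, 15 at 48 h, 19 at 72 h and 22 at 96 h. Any difference was counted, such as Hoxc12 at 0.1 against 0 at 96 h, and the share of all genes was not counted by hour. The knockout libraries at 72 and 96 h held 33.5 M and 38.8 M reads, against 11.4 M and 13.2 M in their partners.

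**Figure D5:**
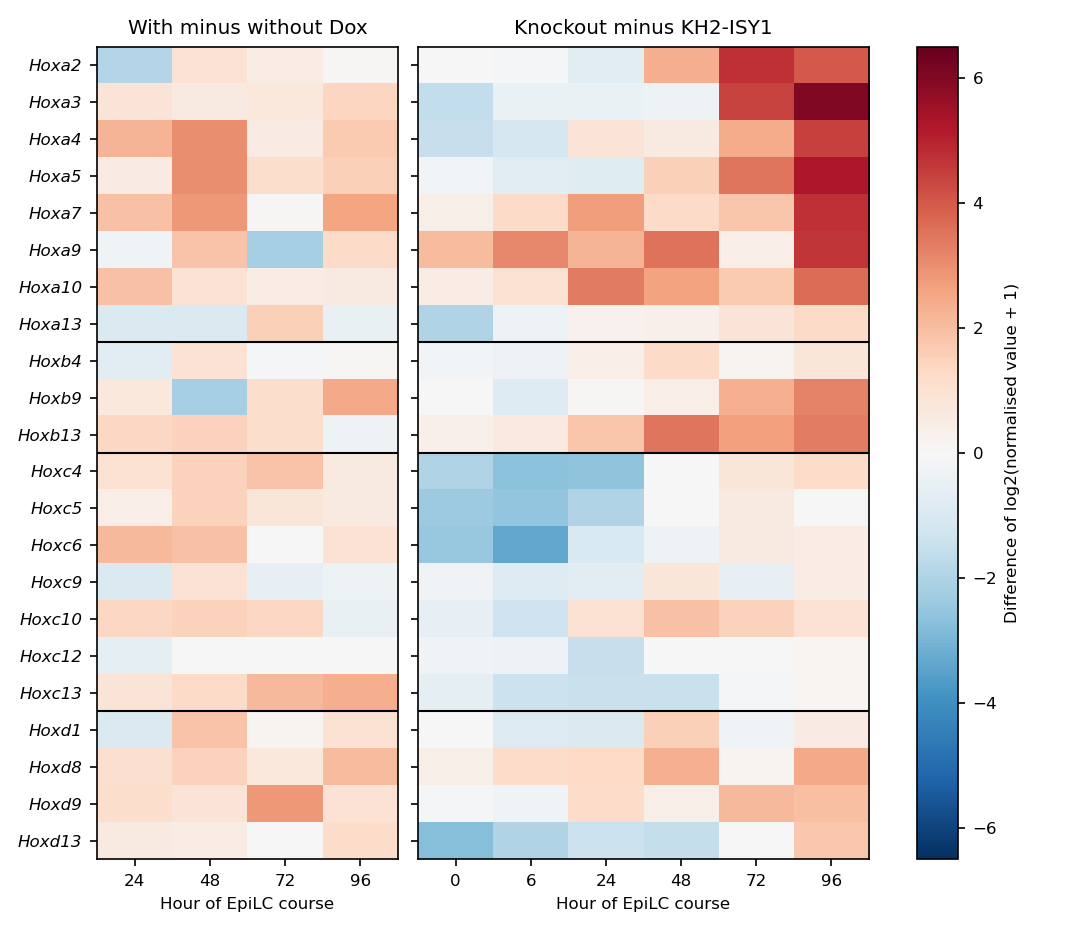
Difference in log2(value + 1) for 22 of the 23 Hox genes of the EpiLC table (rows), with minus without Dox at 24, 48, 72 and 96 h (left) and DGCR8 knockout minus KH2-ISY1 at 0, 6, 24, 48, 72 and 96 h (right). Most Dox cells are above 0 at each hour, whereas the knockout columns turn from a median over all 23 of -0.21 at 0 h to 1.96 at 96 h, with Hoxa3 and Hoxa5 the strongest of the last column.

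Both comparisons share the KH2-ISY1 libraries without Dox at 24, 48, 72 and 96 h. Hoxc13 was higher with Dox (1.64) and lower in the knockout (-0.82), and Hoxa9 was higher in the knockout (2.68) and differed by 0.17 with Dox. In the knockout at 72 and 96 h other genes were high too, and their part in the Hoxa values was not tested. The 5 listed genes of the hindbrain and spinal cord list summed to 629 to 1467 up to 48 h and 1645 to 2598 at 72 and 96 h in the knockout, against 651 to 872 in KH2-ISY1 at 72 and 96 h. Sox1, a neural progenitor gene, was 158 and 369 in the knockout at 72 and 96 h, against 125 and 67.2. Rarb was 10.8 and 10.5, against at most 1.4 in the earlier knockout libraries. The 8 listed TALE genes summed to 569 to 681 up to 48 h and to 1183 to 1394 at 72 and 96 h. The 6 listed primitive streak genes summed to 49.5 to 93.4 up to 48 h and 43.8 to 45.5 at 72 and 96 h in the knockout, with T at most 0.7. The 4 listed fibroblast genes summed to 19.5 to 38.3 and 38.9 to 68.7, with the collagen gene Col1a2 at most 0.1. In KH2-ISY1 at 72 and 96 h the 2 lists summed to 97.5 to 136 and 168 to 177. Across all 6 hours, 3 of 8 TALE genes rose and 0 fell in the knockout, 1 of 16 retinoic acid genes rose and 4 fell, and 7 of 22 Polycomb and Trithorax genes rose and 1 fell, beside 18.1% higher and 24.3% lower of all genes.

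MicroRNAs encoded inside the Hox clusters were read from the small RNA tables, which hold 256 microRNAs for KH2-ISY1 and 264 for the V6.5 ESC line. The mature sequences from RefSeq on GRCm38.p6 are shown because the 4 fall into 2 groups by seed, bases 2 to 8, in capitals.
miR-10b-5p, chr2:74726074-74726096, plus strand, within the annotated spans of Hoxd3 and Hoxd4: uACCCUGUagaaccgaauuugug
miR-10a-5p, chr11:96317186-96317208, plus strand, between Hoxb5 and Hoxb4 and within the annotated span of Hoxb3: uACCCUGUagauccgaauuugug
miR-196a-5p, chr11:96265187-96265208, plus strand, between Hoxb13 and Hoxb9, and chr15:102973365-102973386, plus strand, between Hoxc10 and Hoxc9: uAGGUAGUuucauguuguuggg
miR-196b-5p, chr6:52230129-52230150, minus strand, between Hoxa9 and Hoxa10: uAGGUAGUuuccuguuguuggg
Counted from 1 at the 5′ end, miR-10b and miR-10a differ by A12U and miR-196b and miR-196a by C12A, outside the seed in both. In mouse embryos miR-196 is known to direct cleavage of Hoxb8 transcripts, and in human cells miR-10b is known to target the transcript of HOXD10. The arms are not given in the tables, so the values belong to the microRNA names.

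miR-196a was 286 in serum/LIF, 257 in serum/LIF with Dox, 45.2 and 33.4 at EB days 1 and 4, and 211, 423 and 359 at 0, 6 and 48 h of EpiLC induction. miR-196b, encoded beside Hoxa9 and Hoxa10, was 2.8, 3.0, 10.1, 38.2, 27.4, 15.0 and 9.7 in the same order. miR-10b, encoded beside Hoxd4, was 15.2, 10.5, 11.8, 3.8, 49.8, 178 and 101.8. The deposited small RNA values summed to 48534 to 393089 per library, lowest at EB day 4, so each ratio depends on the scale. miR-196b at EB day 4 was 13.6 times its serum/LIF value as deposited and 78.0 times with the libraries scaled to equal table totals, higher either way, and its neighbours Hoxa9 and Hoxa10 were highest at day 2. miR-196a at EB day 4 was 0.117 times its serum/LIF value as deposited and 0.668 at equal totals, lower either way. The direction for miR-10b at EB day 4 turned with the scale, 0.25 as deposited and 1.43 at equal totals. From 0 to 48 h of EpiLC induction miR-196a was 1.70 times and miR-10b 2.04 times the start as deposited and 2.92 and 3.50 at equal totals, while Hoxc10 and Hoxb13, next to the mir-196a copies, fell.

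In V6.5 ESCs in serum/LIF, small RNA was read after control siRNA and after siRNA against Isy1 (siISY1-1 and siISY1-2). mir-196a-1, the Hoxb copy, was 213 with control siRNA and 111.0 and 184 with the siRNAs against Isy1. mir-196a-2, the Hoxc copy, was 83.1 with control siRNA and 20.8 and 25.2. mir-10a was 122.8 with control siRNA and 54.6 and 52.5. All 3 were lower in both libraries against Isy1 as deposited, but as RPM of the table total mir-196a-1 was 554 in the control and 524 and 1148, and mir-10a was 319 and 258 and 327, so that only mir-196a-2 (216, 98.3 and 157) was lower on both scales. The 2 mir-196a copies share 1 mature -5p sequence, so a read of it cannot be assigned to either copy by its letters. The split between the 2 names may therefore reflect how reads were placed and not the output of each cluster. With 1 control library no test was made.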

How the data were processed

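PolyA values are of the unit called signal here, deposited as gene reads divided by a factor for each library. The values themselves show this: after a factor was recovered for each library, 100% of the low values (under 60 units) came out as whole reads within rounding, with an error of at most 0.0525 reads in the EB table and up to 0.352 in the EpiLC table. The submitters' processing notes name Bowtie, GRCm38 and mm9; which build served which table, the gene counter, its strand setting and the annotation are not given in the sources used here. The small RNA values, also signal as deposited, were used as listed. Per the labels' protocols, libraries were made from 3 ug of total RNA. Lines with date-like names (22 in the EB table, 20 in the EpiLC table) cannot be traced to a gene and are no Hox genes, and 1 line without a name was left out.

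Fits used limma 3.58.1 in R 4.3.3 on log2(value + 1) over all genes with a mean of at least 1, with an intensity trend and Benjamini-Hochberg adjustment at 0.05. Courses were fitted with natural splines of the square root of time (2 df for EB, 3 df for EpiLC, leaving 4 and 6 residual df), with the F test for the call and the fitted last minus first time for direction. Dox (4 pairs) and knockout (6 pairs) differences had the hour as a block, leaving 3 and 5 residual df, and the slope on the square root of hour left 4. The hour pairs libraries of the same time of induction. The scripts were tested on simulated data before use. edgeR 4.0.16 on recovered whole reads was added after seeing the data and called 4540 of 16753 genes in the EB course, 6651 of 16184 in the EpiLC course from 0 to 72 h and 109 of 15980 for Dox at 24 and 48 h. Other libraries, whose rounding was coarser beside the value of a read, were not treated as recovered. Exact 95% intervals and the floor of 3 reads cover counting error only. Fold changes on the log2(value + 1) scale understate those of low genes.

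The members and the gene lists were chosen with earlier results of these data known. Values in each library were given for the 3 members of each cluster with the highest EB value, for each member called in a fit of the EpiLC table and for the 5 members with the highest EpiLC values, with other members and genes from the lists added where a result turns on them; the values of a few genes are not reported here, and counts, sums and medians are over all members. Alternatives were the pseudocount, the filter, 2 rescalings, the trend, the spline, the hour block and each library left out.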

Additional observations from a re-analysis of the deposited data

Results flagged for a closer look

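For 7 members the Dox difference in serum/LIF, from 1 library of each kind, had the opposite sign to that in all 4 EpiLC pairs; the difference between the conditions was not tested. Hoxd13 differed by -1.23 on the log2(value + 1) scale in serum/LIF and by 0.01 to 1.21 in the EpiLC pairs. Hoxa3 differed by -0.76 and by 0.56 to 1.38, Hoxa5 by -0.65 and by 0.52 to 3.00, and Hoxa4 by -0.54 and by 0.53 to 3.00. Hoxc4 differed by -0.52 and by 0.58 to 1.85, Hoxa7 by -0.15 and by 0.09 to 2.83, and Hoxd9 by -0.11 and by 0.86 to 2.81. Of these, only the Hoxd13 serum/LIF ratio (0.403, exact interval 0.273 to 0.585) had a counting interval that excludes 1.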

How the results depend on the processing

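With each library or pair left out in turn, the count of Hox calls ranged from 8 to 15 in the EB course (14 with all; 8 without day 10, 9 without day 13), from 14 to 18 in the EpiLC course (18), from 0 to 1 for Dox (1; 0 without 48, 72 or 96 h), from 4 to 7 for the knockout (6) and was 0 throughout for the knockout slope. In those fits the share of all genes called ranged from 11.5% to 34.9% in the EB course and from 37.6% to 51% in the EpiLC course. For Dox it ranged from 0% to 6.98%, for the knockout from 33.9% to 38.9% and for the slope from 0.0308% to 0.363%. Among genes with a mean of at least 5, 9 of 9 tested members fell in the EpiLC course. The Dox count was 0 with a pseudocount of 0.5, with no filter, with no intensity trend, with no hour block and with edgeR on the 24 and 48 h pairs; with no trend and with no block it was 0 over all 16117 genes too. The knockout count was 1 with no hour block, beside 21.4% of all genes called, and 10 without 72 and 96 h, beside 32.8%. In the EB course Hoxa5 ranged from -1.26 without day 0 to 2.83 without day 10. Calls kept in every alternative were 7 of 14 in the EB course, 13 of 18 in the EpiLC course, 0 of 1 for Dox and 1 of 6 for the knockout. Median-ratio rescaling moved the median change of all genes in the EB course from 0.12 to -0.01 and left 14 calls. The Dox count in serum/LIF at least 2-fold lower went from 8 to 7 under it. At equal table totals, microRNA ratios moved from 0.117 to 0.668 and 1.70 to 2.92 (miR-196a), from 13.6 to 78.0 and 0.354 to 0.607 (miR-196b) and from 0.25 to 1.43 and 2.04 to 3.50 (miR-10b), EB day 4 and EpiLC 48 h against their starts. Causes were not tested. Values near 3 reads limit most EpiLC members after 24 h.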
